A study of Mus musculus with 6 samples.

Results

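10 genes of transforming growth factor beta (TGF-β) and activin signaling were followed in single cells of the mouse Achilles tendon, before and after tenotomy. They were taken by gene symbol: the ligand genes Tgfb1, Tgfb2, Tgfb3 and Inhba, the receptor genes Tgfbr1, Tgfbr2 and Tgfbr3, the latency genes Ltbp1 and Ltbp2, and the responsive gene Tgfbi, and all 10 were found among 33696 measured genes. The cells came from Gli1-CreERT2; Ai9 mice given tamoxifen, in which a red reporter marks cells that expressed Gli1 at labeling and their progeny, so Gli1+ names a lineage and not present Gli1 expression. Both Gli1+ and Gli1- cells were collected by sorting at 3 stages, uninjured, 7 days post injury (dpi) and 21 dpi. The labels give 8 mice per stage and 24 in all, and a single library was made per sort and stage, 6 in total, so that mice within a library cannot be told apart. The age of the mice is not given in the sources used here, and every mouse, controls included, carried the reporter and received tamoxifen.

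TGF-β ligands are secreted in a latent complex with their own propeptide, which latent TGF-β binding proteins tether to the matrix until the ligand is released. Released ligand joins the type II receptor encoded by Tgfbr2 with the type I receptor encoded by Tgfbr1, which phosphorylate SMAD2 and SMAD3, and activin A, a dimer of the Inhba product, reaches the same SMAD proteins through activin receptors. In tendon this pathway is known for maintaining tenocyte identity, and after injury for driving matrix production and scar.

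The number of kept cells ranged from 7057 to 10882 per library, and the median UMI count (counted RNA molecules) per cell from 4225 to 9522. Transcripts of X-inactivation and of the Y chromosome went against the labeled equal sex distribution. Cells with a Y-linked UMI and no Xist UMI made up 15.02% of the Gli1+ uninjured cells, 70.3% and 70.1% of the Gli1+ and Gli1- cells at 7 dpi, and 58.6% of the Gli1- uninjured cells. Cells with Xist alone made up 68.9% of Gli1+ uninjured cells, 92.5% and 90.5% of the cells at 21 dpi, and 0.0% of Gli1- uninjured cells (0 of 10882, which allows up to 0.0276%). The uninjured Gli1+ and Gli1- libraries also differed from each other in this respect, so they may not hold cells of the same mice, and a difference between these sorts cannot be told apart from one between mice. Sex and time cannot be told apart for Gli1- at 21 dpi over uninjured, nor between 7 and 21 dpi in either sort. Xist-only cells made up 0.0108% and 0.0101% of Gli1+ and Gli1- cells at 7 dpi. Cells with Y-linked RNA only made up 0.1125% and 0.0644% of them at 21 dpi. Statements below on the highest or lowest stage carry this limit. For the other comparisons over uninjured, values within a sex are given below for the called ratios of members, from libraries with at least 50 such cells. None is given for the pathway list. Pairs of libraries shared 27 to 75 barcodes. Keratin RNA also differed: a Krt14 UMI was found in 98.8% of mesenchymal cells of Gli1+ 7 dpi, in 46.3% of those of Gli1+ 21 dpi, in 6.35%, 12.4% and 8.22% of those of Gli1+ uninjured, Gli1- 7 dpi and Gli1- 21 dpi, and in 0 of 5836 of those of Gli1- uninjured, which allows up to 0.0514%. Keratin genes took at most 0.318% of the mesenchymal UMIs, and leaving them out of the totals moved no member's log2 ratio by more than 0.0041. That step only rescales the totals, so it cannot show whether epidermal RNA in these cells alters member counts. Gli1 itself was near equal in both sorts at 7 dpi, with 2.14 CPM (UMIs per 1000000 UMIs) in Gli1+ and 2.61 CPM in Gli1- mesenchymal cells, and was 13.6 and 9.17 CPM in uninjured tendon.

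The promoters of Tgfb2 and Inhba are shown because these were the ligand genes called higher in injured Gli1+ cells, Tgfb2 at 7 dpi and Inhba at 21 dpi. Each run is the 250 bases before the RefSeq start on build GRCm38.p6, 5′ to 3′ on the gene's own strand, with the letters TATAAA in capitals. The Tgfb2 run is chr1:186705990-186706239 on the minus strand, and the Inhba run is chr13:16011601-16011850 on the plus strand.
Tgfb2: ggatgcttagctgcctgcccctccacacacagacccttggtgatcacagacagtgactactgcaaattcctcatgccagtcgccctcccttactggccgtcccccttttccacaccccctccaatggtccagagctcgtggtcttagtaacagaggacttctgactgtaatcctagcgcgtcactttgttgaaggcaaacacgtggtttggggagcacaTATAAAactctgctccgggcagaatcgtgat
Inhba: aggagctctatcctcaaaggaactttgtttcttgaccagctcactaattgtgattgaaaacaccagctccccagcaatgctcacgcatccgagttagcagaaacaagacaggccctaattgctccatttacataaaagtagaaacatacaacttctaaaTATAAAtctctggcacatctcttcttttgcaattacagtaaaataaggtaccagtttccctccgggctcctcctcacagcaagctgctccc

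Both promoters hold TATAAA, which was found on either strand in 12.4% of 32851 promoter windows. The windows searched were the 250 bases before each start. It began at position -31 in Tgfb2 and at position -91 in Inhba. The cyclic AMP response element TGACGTCA, present in 1.55% of promoters, and the AP-1 letters TGACTCA, present in 4.46%, were in neither. The SMAD box CAGAC, present in 42.2%, occurred 2 times in Tgfb2 and 0 times in Inhba. Of the 10 members, 8 had a promoter in the RefSeq table, and the response element was found in 1 of their 10 listed promoters, at position -73 of an Ltbp1 start. A match of letters is a description of the window and not a bound site.

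Levels were summed over mesenchymal cells, those of fibroblast, tendon, cartilage or bone type, which numbered 2471 uninjured, 6983 at 7 dpi and 8136 at 21 dpi in Gli1+, and 5836, 8052 and 7591 in Gli1-. A gene is called higher or lower where the log2 ratio of 2 sums exceeds 0.58 either way, the fold used in the study. With 1 library per condition, no comparison of 2 libraries given here has a test, and the intervals are exact 95% intervals for counting error only. In Gli1+ cells at 7 dpi, 2 of 10 members were higher, where 19.8% of all tested genes were, and 3 were lower, where 29.6% of all genes were. In Gli1+ cells at 21 dpi, 1 member was higher against 12.8% of all genes, and 3 were lower against 30.3%. In Gli1- cells at 7 dpi, 2 members were higher against 20.7% of all genes and 3 were lower against 23.6%. In Gli1- cells at 21 dpi, 4 members were higher against 17.1% of all genes and 3 were lower against 24.1%. With 10 members, 1 to 3 calls lie near these background shares, and the 4 higher members of Gli1- at 21 dpi lie above theirs. The median member log2 ratio was -0.20 and -0.29 in Gli1+ cells at 7 and 21 dpi and 0.14 and -0.15 in Gli1- cells, beside medians over all tested genes of -0.15, -0.25, -0.06 and -0.10. Scaling by trimmed means (TMM) raised all log2 ratios over uninjured by 0.30 and 0.46 (Gli1+) and by 0.11 and 0.18 (Gli1-), and lowered the uninjured Gli1+ over Gli1- ratios by 0.25.

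The make-up of the mesenchymal cells differed between stages, and most clusters came largely from 1 library. Clusters holding 50 cells at both stages numbered 1 for Gli1+ at 7 dpi, 3 for Gli1+ at 21 dpi and 4 for each Gli1- stage. With those clusters weighted equally, an alternative added after the data were seen, 2 of the 21 called ratios over uninjured were still called, those of Tgfb2 and Tgfbr1 in Gli1+ at 7 dpi. Fewer cells of a type and less RNA per cell cannot be told apart in the sums below, and a within-cluster value is given where it bears on a member.

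**Figure D1:**
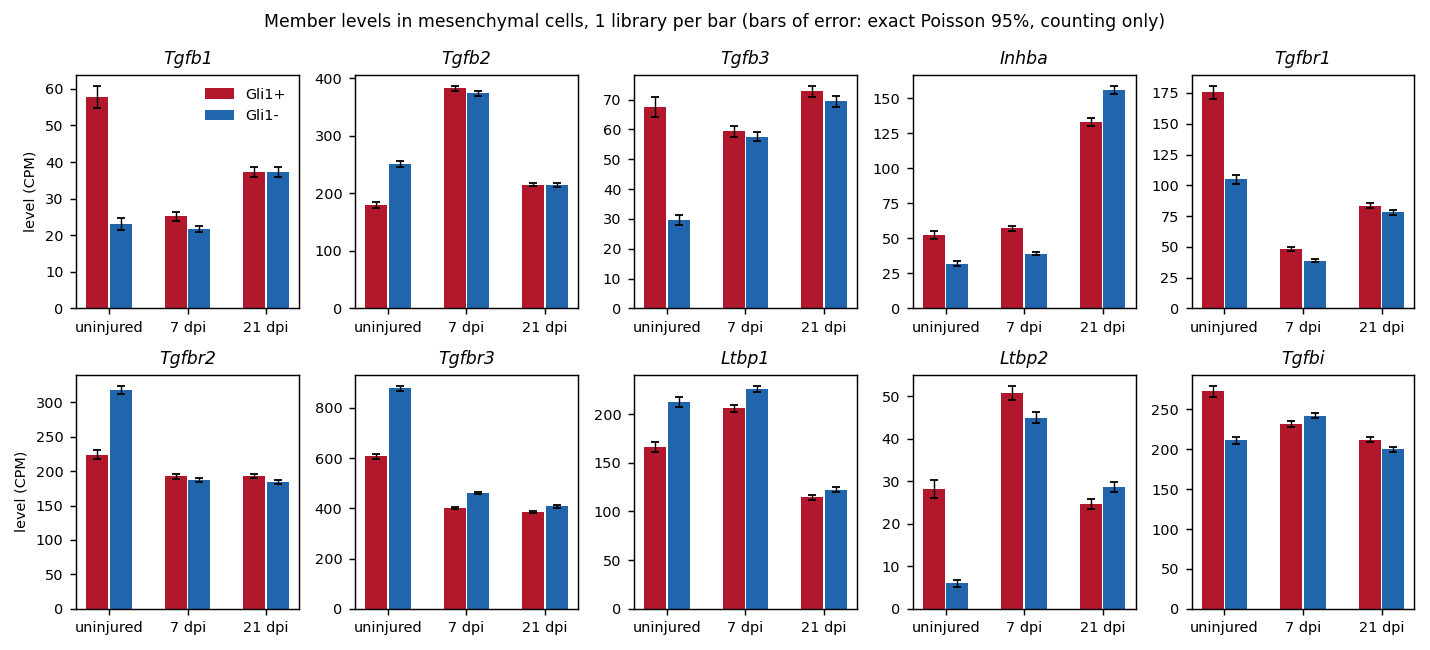
Level of each member (vertical axis, CPM) in mesenchymal cells of uninjured tendon, 7 dpi and 21 dpi, with Gli1+ in red and Gli1- in blue, 1 library per bar and exact Poisson 95% intervals for counting error. For each member the ratio of the sorts is farthest from 1 in uninjured tendon, Tgfb2 and Ltbp2 are highest at 7 dpi, and Inhba is highest at 21 dpi. Sex and time cannot be told apart between the 7 and 21 dpi libraries.

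Tgfb2, a ligand gene, was the member with the highest ratio over uninjured in Gli1+ cells at 7 dpi. Its level was 179.6 CPM in uninjured, 382.3 CPM in 7 dpi and 215.1 CPM in 21 dpi Gli1+ cells, and 251.1, 373.6 and 214.2 CPM in the same order in Gli1- cells. Both sorts were thus highest at 7 dpi and nearly equal to each other after injury. The log2 ratio of 7 dpi over uninjured was 1.09 (1.04 to 1.14) for Gli1+ and 0.57 (0.54 to 0.61) for Gli1-, the latter just inside the threshold. Among cells with Y-linked RNA only, the ratios were 1.37 and 0.62. Cells gated on Pdgfra, with keratins disregarded, gave 0.91 in Gli1+ at 7 dpi. Within the clusters that held 50 cells at both times, Tgfb2 was above its uninjured level in 1 of 1 Gli1+ cluster and in 4 of 4 Gli1- clusters. The Gli1+ cluster, led by Sorcs3, held 188 of 6983 mesenchymal cells at 7 dpi. Of the Gli1- clusters 2 were past the threshold. The C7-led one, with 1666 cells at 7 dpi, gave 0.13 (0.04 to 0.21). The largest ratio was in the Gli1- cluster led by Ptx4, which raised all 5 tenocyte markers but is left unnamed. Tgfb2 went there from 130.7 to 426.5 CPM, a log2 ratio of 1.71 (1.45 to 1.97).

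Inhba, which encodes the subunit of activin A, was highest at 21 dpi. Its level was 52.4, 57.1 and 133.2 CPM in Gli1+ cells of uninjured tendon, 7 dpi and 21 dpi, and 32.1, 39.2 and 156.3 CPM in Gli1- cells. Both 21 dpi libraries stood above the other 4. The log2 ratio of 21 dpi over uninjured was 1.35 (1.26 to 1.43) for Gli1+ and 2.28 (2.20 to 2.37) for Gli1-, and it was 1.68 among Xist-only cells of the Gli1+ sort. At 7 dpi the Gli1+ ratio was 0.12 and, among Y-linked cells, -0.39, both inside the threshold. In uninjured Gli1+ tendon, Inhba was 80.0 CPM in cells with Y-linked RNA only and 39.3 CPM in cells with Xist only.

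Most of the Inhba UMIs at 21 dpi lay in 1 cluster of each sort. These clusters had Saa3, Mmp10, Il11 and Grem1 among their leading genes, matched none of the marker lists and are left unnamed. They held 10.2% of the Gli1+ mesenchymal cells (829 of 8136) and 9.84% of the Gli1- ones (747 of 7591), but 68.5% (67.6% to 69.4%) and 67.7% (66.8% to 68.5%) of the Inhba UMIs. Inhba was 508.9 CPM inside the Gli1+ cluster and 51.1 CPM in the other mesenchymal cells, and 574.2 and 61.9 CPM in Gli1-. Without these clusters, an alternative chosen after the data were seen, the 21 dpi log2 ratio of Inhba was -0.04 in Gli1+ and 0.95 in Gli1- cells. With every cell given equal weight it was 0.54 in Gli1+ and 1.68 in Gli1- cells, and after thinning each cell to 2000 UMIs it was 0.58, just inside the threshold, and 1.78. The cells of these clusters held 1.88 and 2.31 times the median UMIs of their library. Among clusters found at both times, Inhba was above its uninjured level in 1 of 3 Gli1+ and 1 of 4 Gli1- clusters, and weighting these equally gave -0.24 and -0.38.

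**Figure D2:**
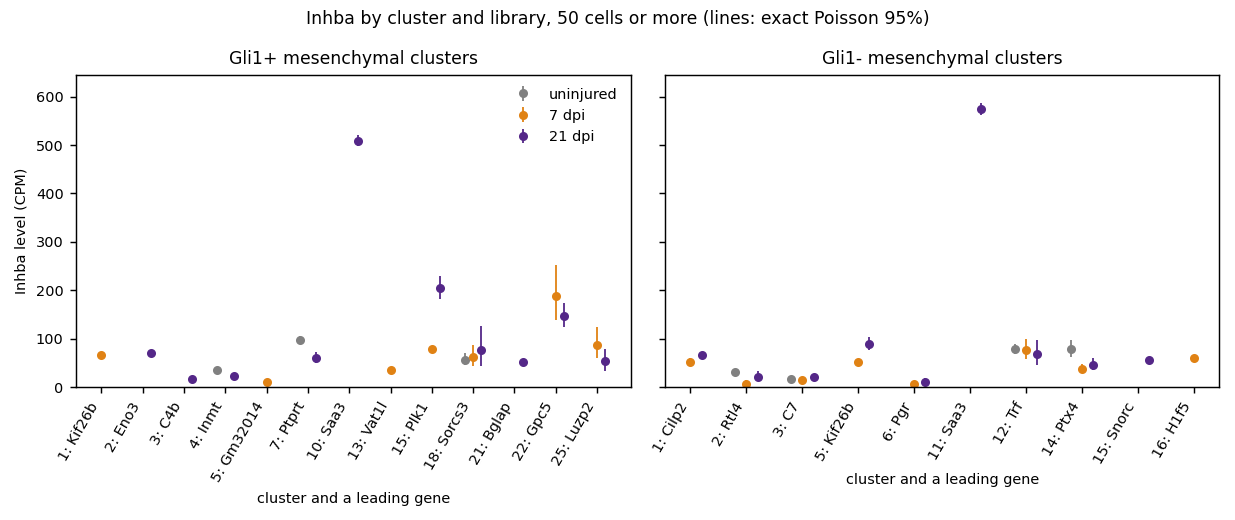
Inhba level (vertical axis, CPM) in each mesenchymal cluster with 50 cells or more in a library, labeled by number and a leading gene, for uninjured (gray), 7 dpi (orange) and 21 dpi (purple) cells, with exact Poisson 95% intervals. The Saa3-led clusters reach 508.9 CPM in Gli1+ and 574.2 CPM in Gli1- cells at 21 dpi, above every other cluster plotted.

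Other members also differed in the Saa3-led clusters, in the same direction in both sorts. Ltbp2 was higher there than in the other mesenchymal cells, by a log2 ratio of 1.75 (1.62 to 1.88) for Gli1+ and 1.59 (1.46 to 1.71) for Gli1-. Tgfbi was higher too, at 432.5 against 164.2 CPM in Gli1+ and 377.7 against 160.0 CPM in Gli1-. Tgfb3 was lower, at 31.6 against 81.7 CPM in Gli1+ and 20.2 against 80.5 CPM in Gli1-, and so was Tgfbr2, by a log2 ratio of -1.46 and -1.57. The members were left out when the clusters were built.

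Tgfb1, the ligand gene most linked to immune cells and platelets, was called in opposite directions in the sorts at 21 dpi. It was 57.7, 25.2 and 37.2 CPM in Gli1+ mesenchymal cells and 23.1, 21.7 and 37.3 CPM in Gli1- mesenchymal cells of uninjured tendon, 7 dpi and 21 dpi. The high value was that of uninjured Gli1+ cells. The log2 ratio at 7 dpi was -1.20 (-1.30 to -1.10) for Gli1+ and -0.09 (-0.21 to 0.03) for Gli1-, and that at 21 dpi was -0.64 (-0.73 to -0.54) and 0.69 (0.58 to 0.81). The 21 dpi Gli1+ value was inside the threshold under TMM scaling (-0.17), in Xist-only cells (-0.53) and after thinning (-0.46). The 7 dpi Gli1+ value was -1.34 among Y-linked cells and -0.48 in the 1 cluster found at both stages. In Gli1- at 21 dpi, 2 of 4 clusters found at both stages called Tgfb1 higher and 1 called it lower, from -0.77 to 1.03. At 21 dpi the calls of both sorts were lost with clusters found at both stages weighted equally. Immune clusters held 3816 of 7057 cells of the uninjured Gli1+ library and at most 1 cell of any other, and T-cell and myeloid marker sums in its mesenchymal cells were 17.1 and 29.6 CPM, against 0.390 to 1.52 and 5.52 to 10.1 CPM in the other libraries. Their part in the Tgfb1 value was not tested.

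Tgfb3, the third ligand gene, was 67.4, 59.4 and 72.8 CPM in Gli1+ cells and 29.6, 57.6 and 69.4 CPM in Gli1- cells. The Gli1- uninjured library was low and the other 5 were close together. In Gli1- cells its log2 ratio over uninjured was 0.96 (0.87 to 1.06) at the earlier stage and 1.23 (1.14 to 1.33) at the later one, and in Gli1+ cells it stayed within the threshold. Among Y-linked cells the 7 dpi Gli1- ratio was 0.96, and in clusters of both libraries the values were 0.21 and 0.48.

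Each receptor gene was called lower after injury in at least 1 sort. Tgfbr1, the type I receptor gene, was 175.5, 48.6 and 83.4 CPM in Gli1+ cells and 104.8, 38.7 and 78.0 CPM in Gli1- cells. Both sorts were lowest at 7 dpi. The 7 dpi log2 ratio was -1.85 (-1.92 to -1.79) for Gli1+ and -1.44 (-1.50 to -1.37) for Gli1-, and -1.87 and -1.48 among Y-linked cells. In clusters of both libraries it was -1.28 and -0.47. At 21 dpi it was -1.07 (-1.13 to -1.02) in Gli1+ and -0.42 in Gli1- cells, and -1.08 in Xist-only Gli1+ cells, but 0.07 in the Gli1+ clusters of both libraries, and 3 of 4 such Gli1- clusters called Tgfbr1 higher.

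Tgfbr2, the type II receptor gene, was 224.1, 192.4 and 192.7 CPM in Gli1+ cells and 318.0, 186.9 and 183.9 CPM in Gli1- cells. It was called lower in the Gli1- sort, by -0.77 (-0.80 to -0.73) at 7 dpi and -0.79 (-0.83 to -0.75) at 21 dpi, but in the clusters of both libraries the values were 0.04 and 0.08. Among Y-linked cells at 7 dpi it was -0.87 in Gli1- and -0.07 in Gli1+. Tgfbr3 encodes betaglycan, a co-receptor that presents TGF-β2. It was 607.9, 401.5 and 385.1 CPM in Gli1+ cells and 877.7, 461.8 and 407.6 CPM in Gli1- cells, lower after injury in both sorts. The log2 ratio was -0.60 and -0.66 in Gli1+ cells at 7 and 21 dpi, which TMM scaling moved to -0.30 and -0.19, and these Gli1+ calls were also lost in Y-linked cells at 7 dpi (-0.53) and without the Saa3-led clusters at 21 dpi (-0.56). In Xist-only cells the 21 dpi value was -0.65. The Gli1- ratios were -0.93 and -1.11, where clusters of both libraries gave -0.33 and -0.22, and -0.97 among Y-linked cells at 7 dpi.

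Ltbp2, a member of the latent TGF-β binding protein family that itself joins microfibrils, had the largest ratio of any member. It was 28.1, 50.7 and 24.7 CPM in Gli1+ cells and 5.97, 45.0 and 28.6 CPM in Gli1- cells. The uninjured Gli1- library was the lowest of the 6. The 7 dpi log2 ratio was 0.85 (0.73 to 0.97) for Gli1+ and 2.91 (2.72 to 3.12) for Gli1-, and 0.28 and 2.92 among Y-linked cells, so the Gli1+ call was lost there. In clusters of both libraries weighted equally the 7 dpi values were -0.09 and 0.13. The Gli1+ value came from 1 cluster, at 9.58 CPM uninjured and 8.99 CPM at 7 dpi, with an interval of -1.92 to 1.46. The Gli1- value is a ratio of mean CPM, so clusters with higher levels weigh more in it. At the later stage the Gli1- ratio was 2.26 in the sums and -0.12 in those clusters. At 21 dpi the Gli1+ ratio was -0.19, in Xist-only cells it was 0.24, and without the Saa3-led clusters it was -0.70, past the threshold. Ltbp2 was above its uninjured level by the threshold in 3 of 4 Gli1- clusters at 7 dpi and in 3 of 4 at 21 dpi. In these 3, led by Rtl4, C7 and Trf, uninjured Ltbp2 was only 3.5014, 2.2364 and 0.7035 CPM. Each lay under 5 CPM, and the filter on mean CPM was not applied within clusters. The calls thus rest on low uninjured levels, and the Trf-led interval at 21 dpi was 0.1604 to 6.868. The exception was the Ptx4-led cluster, which held the highest Ltbp2 level of the 4 in uninjured tendon. Ltbp2 there was 82.1 CPM uninjured, 62.8 CPM at 7 dpi, a log2 ratio inside the threshold (-0.39, -0.80 to 0.03), and 45.5 CPM at 21 dpi, a lower call (-0.85, -1.37 to -0.35).

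Ltbp1, which tethers latent TGF-β to the matrix, was 166.4, 205.8 and 114.6 CPM in Gli1+ cells and 212.4, 225.9 and 122.3 CPM in Gli1- cells. Both sorts were lowest at 21 dpi, where the log2 ratio was -0.54 for Gli1+ and -0.80 (-0.84 to -0.75) for Gli1-, and 0.20 in the Gli1- clusters of both libraries. Within a sex, Ltbp1 gave 0.31 and 0.07 in Gli1+ and Gli1- cells at 7 dpi and -0.53 in Gli1+ cells at 21 dpi. Tgfbi, a matrix protein gene named for its induction by TGF-β, was 272.8, 232.2 and 212.3 CPM in Gli1+ cells and 211.1, 242.1 and 200.1 CPM in Gli1- cells, and no comparison of these sums called it. Within a sex its ratios were -0.25 and 0.30 in Gli1+ and Gli1- cells at 7 dpi and -0.39 in Gli1+ cells at 21 dpi. Its clusters moved in opposite directions. At 21 dpi the Gli1+ clusters led by Inmt and Ptprt gave -1.33 (-1.49 to -1.17) and -0.69 (-0.93 to -0.46), and the one led by Sorcs3 gave 0.83 (0.46 to 1.18). In Gli1- cells the Rtl4-led cluster was lower at both stages (-0.76 and -0.91) and the Trf-led cluster higher (0.65 and 0.76). Without the Saa3-led clusters Tgfbi was called lower in Gli1+ cells at 21 dpi, by a log2 ratio of -0.73.

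**Figure D3:**
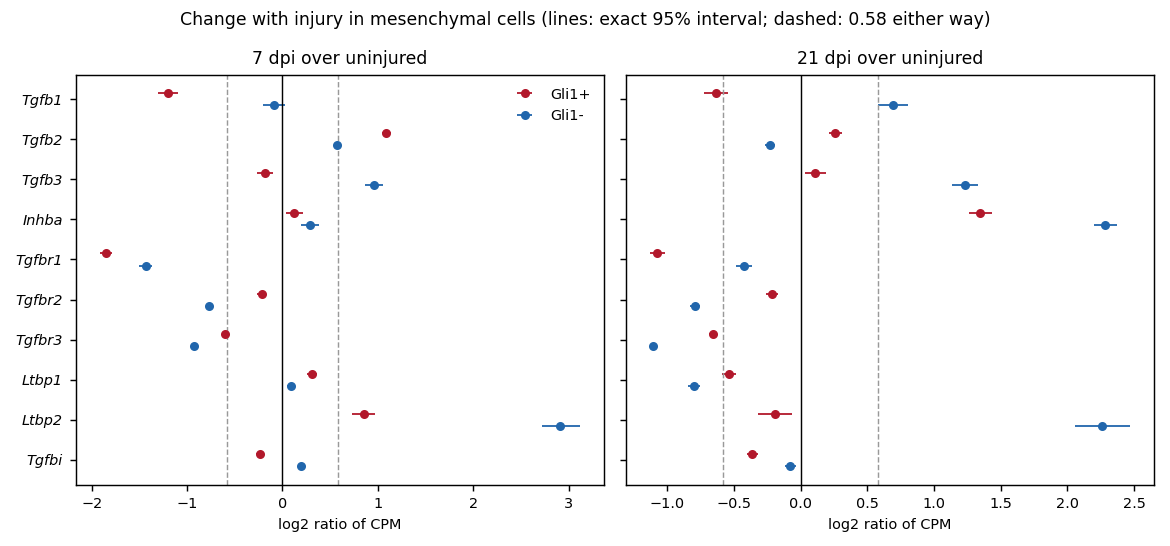
Log2 ratio of CPM over uninjured (horizontal axis) for each member at 7 dpi (left) and 21 dpi (right) in mesenchymal cells, Gli1+ in red and Gli1- in blue, with exact 95% intervals for counting error and dashed lines at 0.58 either way. Tgfbr1 lies lowest at 7 dpi in both sorts, and Inhba lies to the right in both at 21 dpi.

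The libraries of the sorts differed in uninjured tendon, where their mice may differ too, and were close after injury. In uninjured tendon 5 of 10 members were higher in Gli1+ cells, where 15.6% of all tested genes were, and 0 were lower, against 7.84%. The 5 were Ltbp2 at a log2 ratio of 2.24 (2.01 to 2.47), Tgfb1 at 1.32 (1.20 to 1.45), Tgfb3 at 1.19, Tgfbr1 at 0.74 and Inhba at 0.71. Within Y-linked cells the same 5 were higher, Ltbp2 at 2.77, Tgfb1 at 1.41, Inhba at 1.29, Tgfb3 at 1.14 and Tgfbr1 at 0.69, and 3 were called lower, Tgfb2 at -0.73, Tgfbr2 at -0.73 and Tgfbr3 at -0.64. Under TMM scaling 3 members were higher and 4, Tgfb2, Tgfbr2, Tgfbr3 and Ltbp1, were lower. The split between higher and lower thus depended on the scaling and on the sex of the cells. Shares of all genes were not computed for Y-linked cells or TMM scaling, so those counts have no background beside them. TMM moved the median over all tested genes from 0.09 to -0.16. At 7 dpi 0 members were higher, against 2.19% of all genes, and 0 lower, against 2.01%. At 21 dpi 0 were higher, against 0.476%, and 0 lower, against 1.29%. The ratio farthest from 0 after injury was that of Inhba at 7 dpi, 0.54 (0.48 to 0.61).

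The members differed between cell types. Tgfb1 was 230.9 CPM in immune cells of uninjured Gli1+ tendon, 54.3 to 171.9 CPM in endothelial cells, 95.4 and 96.4 CPM in chondrocyte-like cells and 7.89 to 39.7 CPM in tendon stem-like cells. Tgfb2 was lowest in the immune cells at 5.73 CPM and reached 437.5 CPM in tenocyte-like Gli1+ cells at 7 dpi. Tgfb3 was 82.0 to 111.8 CPM in tenocyte-like cells and 26.8 to 58.7 CPM in tendon stem-like cells, so the sums of these classes did not overlap. Within the tendon stem-like class, the Inmt-led Gli1+ cluster reached 73.7 CPM at 21 dpi. The share of all genes with class ranges apart was not computed. Inhba was at most 10.3 CPM in endothelial cells and 1.59 CPM in immune cells.

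Among the receptors, Tgfbr3 was 577.2 to 1049.1 CPM in tendon stem-like cells and 312.6 to 814.7 CPM in tenocyte-like cells, ranges that overlapped. Tgfbr2 was 256.9 to 423.9 CPM in tendon stem-like cells and 376.0 CPM in immune cells. Ltbp1 was 351.2 and 346.6 CPM in mural cells, the cells around small vessels, of uninjured Gli1+ and Gli1- tendon, and 40.5 to 121.3 CPM in mural cells after injury. The Gli1+ mural cells form 1 cluster, but in Gli1- the Zmat4-led cluster held 651 of the uninjured mural cells and 90 of those at 21 dpi, and the Gm13889-led cluster held 266 and 936, so the Gli1- values come from different clusters. Ltbp2 was 19.4 to 63.6 CPM in tenocyte-like cells and at most 15.8 CPM in tendon stem-like cells, summed over each class. Within the latter class, the Inmt-led Gli1+ cluster reached 22.3 CPM at 21 dpi. Tgfbi reached 927.5 CPM in the myeloid cells of uninjured Gli1+ tendon. A class that came mostly from 1 library cannot be told apart from that library.

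**Figure D4:**
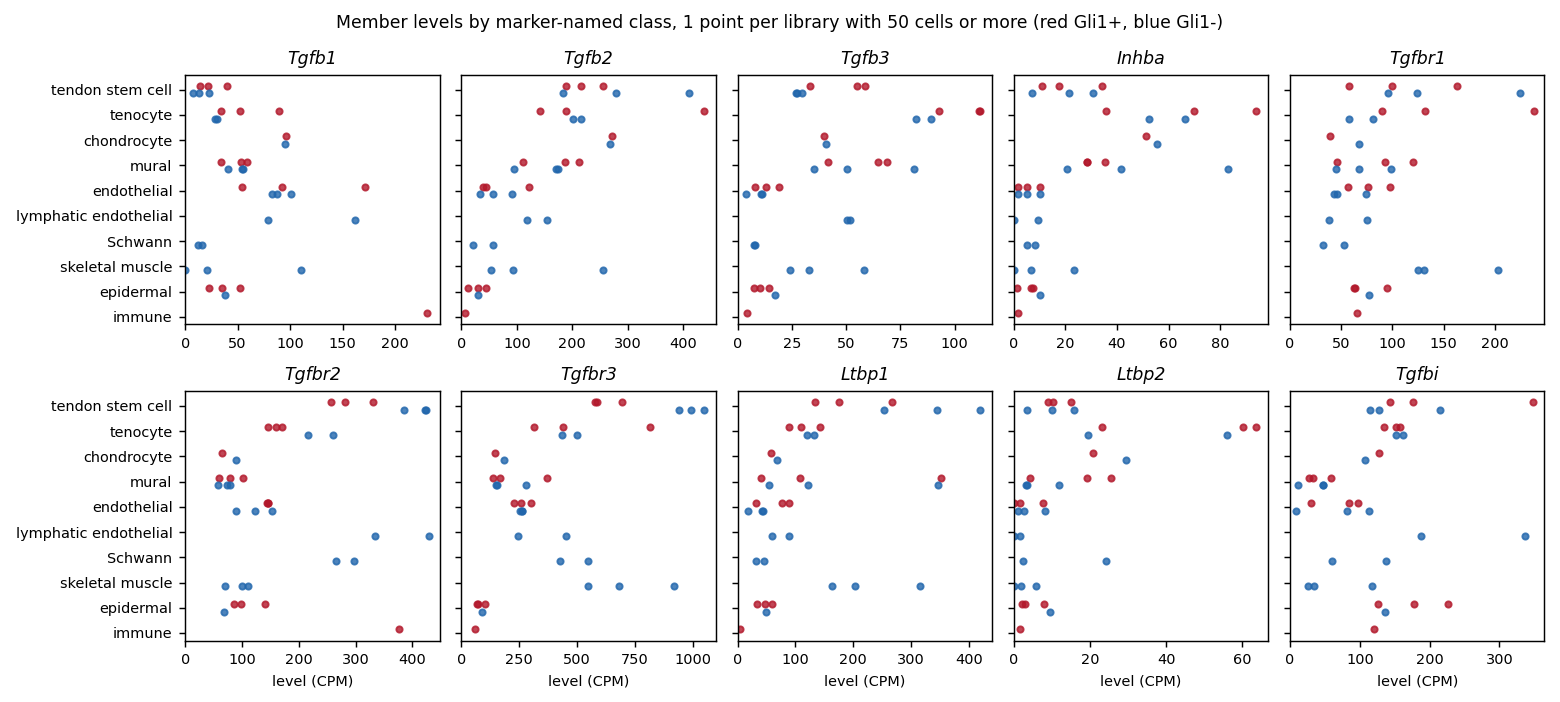
Level of each member (horizontal axis, CPM) in cells of each class (vertical axis), named from its markers and called -like in the text, 1 point per library with 50 cells or more, Gli1+ in red and Gli1- in blue. Tgfb1 is highest in the immune cells at 230.9 CPM, Tgfb3 in tenocyte-like cells at up to 111.8 CPM and Ltbp1 in tendon stem-like cells at up to 419.2 CPM.

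The rest of the pathway was followed in a list of 44 genes. In Gli1+ cells 8 of 38 tested genes were higher and 13 lower at 7 dpi, with 5 and 9 of 38 at 21 dpi. In Gli1- cells 12 of 37 were higher and 11 lower at 7 dpi, with 12 and 9 of 38 at 21 dpi. The background shares are those given for the members, and the list's median log2 ratios were -0.29, -0.35, -0.04 and 0.04 in that order. Calls of this list are given without TMM scaling and without a split by sex. The TMM shifts given above apply to these genes too, so lower calls in Gli1+ cells near the threshold would be lost. Of the ligand genes, Mstn, the myostatin gene, was 2.90 CPM in uninjured and 13.9 CPM in 21 dpi Gli1+ cells, and 0.167 and 12.2 CPM in Gli1- cells, log2 ratios of 2.26 (1.91 to 2.63) and 6.19 (5.07 to 7.64). Uninjured Mstn in both sorts, Fbn2 in Gli1- and Gdf11 in Gli1+ lay under 5 CPM, so these genes passed the filter only through the injured library, which fixed their direction. They make up 2 of the 12 higher genes in Gli1- at 21 dpi and 1 of the higher genes in each of the other 3 comparisons over time. Inhbb, another activin subunit gene, was lower in Gli1+ cells by -1.29 at 7 dpi and -1.87 at 21 dpi, and Gdf11 was higher by 1.27 in Gli1+ cells at 7 dpi. Of the latency and storage genes, Fbn2 (fibrillin 2) and Emilin1 were higher in all 4 comparisons over time, Fbn2 by 2.31 and 1.68 (Gli1+) and 5.13 and 4.61 (Gli1-) at the earlier and later stage. Ltbp4 was lower in all 4, by -2.07 and -1.46 (Gli1+) and -1.71 and -1.28 (Gli1-), while Ltbp3 was higher in Gli1- cells by 1.14 and 1.16.

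Of the activation genes, Thbs1 and Furin were higher in Gli1- cells at both stages, by 0.63 and 0.75 at 7 dpi and by 0.95 and 0.97 at 21 dpi. Itgb8 was higher there at 21 dpi, by 0.62, and Itgav was higher at 7 dpi, by 0.79 in Gli1+ and 1.22 in Gli1- cells. Of the co-receptors, Eng was lower in all 4 comparisons, by -0.72 to -1.62, and the activin receptor gene Acvr2a was lower by -0.86 and -1.10 in Gli1- cells, where Acvrl1 was lower too. Endothelial cells express Eng and Acvrl1 strongly, and the summed endothelial markers in these mesenchymal cells went from 106.1 CPM uninjured to 21.2 and 24.4 CPM at 7 and 21 dpi in Gli1+, and from 189.6 to 57.0 and 56.2 CPM in Gli1-. Their part in these ratios was not tested. Of the transducers, Smad3 was lower by -1.28 and -0.77 at 7 dpi in Gli1+ and Gli1- cells and by -0.87 at 21 dpi in Gli1+ cells, Zfyve9 was lower in all 4, and Smad2 and Smad4 stayed within the threshold in all 4. Of the inhibitors, Fst, which encodes the activin-binding protein follistatin, was lower in all 4, by -0.83 and -0.84 (Gli1+) and -1.02 and -1.35 (Gli1-). The TMM shifts of 0.30 and 0.46 at 7 and 21 dpi would bring both Gli1+ values of Fst inside the threshold. The same holds for Smad3 in Gli1+ cells at 21 dpi. Tgif1 was higher in Gli1- cells by 1.45 and 1.88 and within the threshold in Gli1+ cells, Bambi was lower in Gli1+ cells at 7 dpi by -1.11, and Fstl3 was higher in Gli1- cells at 21 dpi by 1.16. Of the responsive genes, Col1a1 was higher in all 4, by 1.68 to 2.74, Junb was lower in all 4, by -0.86 to -1.87, Pmepa1 was higher in Gli1- cells by 1.14 and 1.48, and Ccn2 was lower at 7 dpi by -1.49 in Gli1+ and -0.82 in Gli1- cells.

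Over 49 sums of class and library, which share libraries and depth, the log2 level of Tgfb2 was most like that of Loxl2 (Pearson r = 0.88) and Efemp2 (r = 0.85) among 11724 genes, and Inhba was most like Creb3l1 (r = 0.84) and Kdelr3 (r = 0.82). Tgfb1 was most like Ern1 (r = 0.82) and Pitpna (r = 0.77), and Tgfb3 like Lhfp (r = 0.80) and Angpt1 (r = 0.79). For the receptors the nearest genes were Snhg12 (r = 0.72) and Gsk3a (r = 0.70) for Tgfbr1, Efcc1 and Cd55 (both r = 0.82) for Tgfbr2, and Nfia (r = 0.84) and Zcchc24 (r = 0.82) for Tgfbr3. Ltbp1 was nearest to Rbms3 (r = 0.80) and Pknox2 (r = 0.77), Ltbp2 to Golt1b and Pitx1 (both r = 0.80), and Tgfbi to Sulf2 (r = 0.74) and Flrt2 (r = 0.72).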

How the data were processed

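The authors deposited raw counts (UMIs per gene and barcode, 51791785 to 104113557 per library after filtering) from Chromium 3 prime v3 kits and Cell Ranger. The file headers name version 9.0.0, while the submitters' processing notes name 3.1.0 with STAR and build mm10. The filters of the study's methods were applied (200 genes, 1000 UMIs, a log10 ratio of genes to UMIs of 0.7, and 5% mitochondrial or hemoglobin UMIs). In place of DoubletFinder, cells nearest to simulated doublets were removed at 0.8% per 1000 cells. Each sort was clustered (30 components of 2000 variable genes, Leiden resolution 0.5 in igraph) without the members, the pathway list, the markers or sex-linked genes. A cluster was named "-like" from a list with a mean log2 ratio of at least 1 and 3 raised markers, unless its 10 leading genes held more markers of another list, or its cells were shallow and none of the list's markers led. This left unnamed 1 satellite cell match in Gli1+ and 1 tenocyte, 1 Schwann and 1 endothelial match in Gli1-, the last with 971, 158 and 304 cells of uninjured tendon, 7 dpi and 21 dpi, and these stand outside the class ranges. Clusters with no matched list counted as mesenchymal at 100 CPM of Pdgfra or more, a threshold chosen with earlier results known.

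UMIs were summed per library and compared as log2 ratios of CPM, for genes with a mean of 5 CPM or more, called past 0.58. Intervals are exact 95% Poisson, binomial or conditional binomial intervals. The calculation was tested on simulated data. All 10 members are named. The 44 pathway genes are counted by role, with values for up to 4 per role with the largest ratio, and 2 genes of most similar pattern are given per member. Members and lists were chosen with earlier results of these data known. Software was Python 3.11.15, NumPy 2.4.6, SciPy 1.17.1, R 4.3.3 and edgeR 4.0.16 (TMM factors only).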

Additional observations from a re-analysis of the deposited data

Results flagged for a closer look

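In these members the log2 ratio over uninjured had opposite signs in the 2 sorts, with counting intervals that excluded 0 in both. The difference was not tested, since each condition is 1 library. Tgfb1 at 21 dpi was -0.64 in Gli1+ and 0.69 in Gli1- mesenchymal cells, and is the 1 member called in opposite directions. Its calls in both sorts were lost in clusters of both libraries weighted equally. The Gli1+ call was also lost under TMM scaling, in Xist-only cells and after thinning. Tgfb3 at 7 dpi was -0.18 in Gli1+ and 0.96 in Gli1-, and Tgfbi at 7 dpi was -0.23 and 0.20. At 21 dpi Tgfb2 was 0.26 in Gli1+ and -0.23 in Gli1-, and Ltbp2 was -0.19 and 2.26. TMM scaling turned the sign of the Gli1+ value of Tgfb3 (0.12), Tgfbi (0.07) and Ltbp2 (0.27). In Xist-only cells the Gli1+ value of Ltbp2 was 0.24, and in clusters of both libraries its Gli1- value was -0.12. The opposite signs of Ltbp2 thus depend on the scaling, on the sex of the cells and on the clusters compared. In each case the uninjured libraries of the sorts stood further apart than the injured ones, and those libraries also differed in sex-linked RNA.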

How the results depend on the processing

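No paired analysis was made, because each comparison given here sets 1 library against 1, which is a single pair. No replicate was left out for the same reason. A fit of sort and stage as additive terms over the 6 libraries was not made. Of 26 called member ratios, recomputed under each alternative with a value, 386 of 399 values kept their direction, and 203 of 240 counts of called members stayed within 1.5 times. Several alternatives keep nearly the same cells, so a kept direction there says little. With clusters of both libraries weighted equally, 13 of 21 kept their direction. Of all 1060 member values under alternatives, called or not, 403 moved outside the counting interval of the main value and 13 reversed. Shares of all genes were computed for the main comparisons only, so the changed counts below have none beside them.

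A gate on Pdgfra UMIs that drops cells with markers of other types, Krt14 included, left 14 cells in Gli1+ 7 dpi, under the minimum of 50, beside Krt14 UMIs in 98.8% of its mesenchymal cells. It gives no value for comparisons with that library. In those 14 cells Tgfb2 had 9 UMIs and a log2 ratio over uninjured of -0.08, against 1.09 in mesenchymal cells. A gate without keratins kept 3993 cells there. That gate, the removal of Saa3-led clusters or of keratin genes and the weighting of clusters were added after seeing the data. A within-sex ratio over uninjured was not available for Gli1- at 21 dpi, since its uninjured library held no Xist-only cells and the 21 dpi library too few Y-linked ones.

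Counts of members higher in Gli1+ at 7 dpi became 5 in whole libraries and 1 in Y-linked cells, above a log2 ratio of 1, and in clusters of both libraries, where the lower count became 1. Higher in Gli1+ at 21 dpi became 2 by TMM, 4 in whole libraries, and 0 by the mean over cells, thinning, without Saa3-led clusters and in clusters of both libraries. Lower there became 1 by TMM, thinning, a log2 ratio over 1 and the gate without keratins, and 0 in clusters of both libraries. In Gli1- at 7 dpi, higher became 4 in whole libraries and 1 above a log2 ratio of 1 and in clusters of both libraries, and lower became 1 and 0 under the last 2. In Gli1- at 21 dpi, lower became 1 above a log2 ratio of 1, and both counts became 0 in clusters of both libraries. Between uninjured sorts, higher became 3 by TMM and above a log2 ratio of 1 and 2 in whole libraries, and lower became 4 by TMM, 3 in whole libraries and Y-linked cells, and 1 by both gates and thinning. Between sorts at 7 dpi, higher became 1 by the mean over cells, thinning, the gate without keratins and without Saa3-led clusters.

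Directions reversed in whole libraries for Tgfbr3 in Gli1+ at 7 dpi (0.28) and 21 dpi (0.27), and between uninjured sorts for Tgfb3 (-0.0016) and Inhba (-0.23). Without Saa3-led clusters Inhba reversed in Gli1+ at 21 dpi (-0.0351). In clusters of both libraries Ltbp2 reversed in Gli1+ at 7 dpi (-0.092, with an interval of -1.92 to 1.46). So did Inhba (-0.24) and Tgfbr1 (0.0655) in Gli1+ at 21 dpi, and Tgfbr2 in Gli1- at 7 dpi (0.0359). In Gli1- at 21 dpi these reversed there: Inhba (-0.38), Tgfbr2 (0.0841), Ltbp1 (0.20) and Ltbp2 (-0.12). The cause was not tested.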
